A study of Mus musculus with 6 samples.

Results

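Il1a, Il1b and Il1rn, the mouse genes of the interleukin-1 (IL-1) agonists and of their natural antagonist, were examined for histone marks in bone marrow-derived macrophages (BMDMs). All peaks that touched the body of 1 of the 3 genes, extended by 50 kb on each side, were taken from 4 peak lists, each peak counted once. They were 58 of 142059 peaks, around 3 of 21938 protein-coding genes. All positions are in GRCm38, with genes from GENCODE release M21.

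BMDMs were grown from C57BL/6 mouse bone marrow with L929-conditioned medium and were given lipopolysaccharide (LPS), the outer membrane component by which macrophages sense Gram-negative bacteria, or PBS, for 1 h. H3K4me1, a mark of enhancers and promoter flanks, and H3K27ac, a mark of active enhancers and promoters, were profiled by CUT&RUN, in which an antibody guides a nuclease that releases DNA fragments for sequencing. Each treatment and antibody had 1 library. There was therefore no replicate error, no test between treatments was possible, and every statement describes these libraries. The 2 IgG libraries were not analysed here.

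IL-1α and IL-1β are inflammatory cytokines that signal through the same receptor. IL-1β is made as an inactive precursor, is cut by caspase-1 once an inflammasome has formed, and its gene is a classical early target of NF-κB in LPS-treated macrophages. Il1rn encodes the IL-1 receptor antagonist, which occupies that receptor without signalling. An upstream promoter of Il1rn gives an intracellular form of the protein and a downstream promoter gives the secreted form.

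Il1a (ENSMUSG00000027399.1, chr2:129299610-129309972) and Il1b (ENSMUSG00000027398.13, chr2:129364570-129371139) lie on the minus strand, with their starts 61167 bp apart, so that their extended windows merge into 171.5 kb. Il1rn (ENSMUSG00000026981.15, chr2:24336853-24351494) lies on the plus strand about 105 Mb away, in a window of 114.6 kb. Its upstream start is at 24336853, and the start of its longest coding transcript, of 534 coding bases against 477 from the upstream start, is at 24345310. The other protein-coding genes in these windows were Ckap2l, a spindle protein gene, Il1f10, an IL-1 family gene, and Psd4, an exchange factor gene for a small GTPase.

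Of the 58 peaks, 2 were in the LPS H3K27ac list, 0 in the PBS H3K27ac list, 28 in the LPS H3K4me1 list and 28 in the PBS H3K4me1 list. The whole lists held 4200, 52, 73049 and 64758 peaks in the same order. The lists give no read totals, but fragments at each summit were recovered from fold enrichment, p and a scaling factor fitted per library. The solution was unique for 96.4 to 99.5% of peaks, depending on the list. The library depth recovered in this way was 5660000 fragments for LPS H3K27ac and 7210000 for PBS H3K27ac. It was 7000000 and 6870000 for LPS and PBS H3K4me1. As a check of the cell label, 10 of 10 macrophage marker genes had an LPS H3K4me1 peak within 10 kb of a transcription start site (TSS) and 8 of 10 had a PBS peak, against 3 of 8 neutrophil markers in either list, 3 and 1 of 5 T cell markers, 4 and 3 of 5 B cell markers, and 1 of 6 fibroblast markers in either list. Among all protein-coding genes the share was 49.6% under LPS and 43.5% under PBS. The B cell markers also stood above it in both lists, and the T cell markers did so under LPS, at 60%. H3K27ac under LPS was listed at 2 of 10 macrophage markers, 1 of 5 T cell markers and none of the 8 neutrophil, 5 B cell and 6 fibroblast markers, numbers too small to read against 9.81% of all genes. The PBS H3K27ac list had no peak within 10 kb of any of these markers, against 0.191% of all genes.

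Of the 3 genes, only Il1b had an H3K27ac peak in its window. By the same rule 27.7% of protein-coding genes had an LPS H3K27ac peak. Under LPS, both H3K27ac peaks of the windows lay upstream of Il1b, and neither Il1a nor Il1rn had one. Sequences are shown for the 300 bases around the summit of each peak and, for comparison, for the 300 bases before the start of each of the 3 genes, where no H3K27ac peak was listed. They were read from the GRCm38 reference on the strand of the gene, 5′ to 3′. Capitals mark matches to the letters of 5 motifs searched on both strands: NF-κB GGANTTTCC, AP-1 TGANTCA, PU.1 GAGGAAGT, C/EBP TTGCNNAA and, before gene starts only, the TATA box TATAAA.
H3K27ac peak nearer to Il1b, chr2:129380288-129380587, minus strand: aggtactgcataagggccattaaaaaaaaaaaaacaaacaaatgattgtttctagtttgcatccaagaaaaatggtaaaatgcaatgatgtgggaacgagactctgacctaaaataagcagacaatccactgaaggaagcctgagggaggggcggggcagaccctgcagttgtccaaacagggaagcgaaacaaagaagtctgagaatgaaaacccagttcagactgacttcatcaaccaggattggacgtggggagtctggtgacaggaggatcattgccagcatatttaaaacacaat
H3K27ac peak farther from Il1b, chr2:129381170-129381469, minus strand: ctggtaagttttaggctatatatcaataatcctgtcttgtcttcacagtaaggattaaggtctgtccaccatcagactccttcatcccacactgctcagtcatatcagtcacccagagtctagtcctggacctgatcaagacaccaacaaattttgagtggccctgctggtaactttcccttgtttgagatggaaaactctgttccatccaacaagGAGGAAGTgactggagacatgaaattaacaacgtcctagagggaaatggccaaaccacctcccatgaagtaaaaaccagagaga
Il1b promoter, chr2:129371140-129371439, minus strand: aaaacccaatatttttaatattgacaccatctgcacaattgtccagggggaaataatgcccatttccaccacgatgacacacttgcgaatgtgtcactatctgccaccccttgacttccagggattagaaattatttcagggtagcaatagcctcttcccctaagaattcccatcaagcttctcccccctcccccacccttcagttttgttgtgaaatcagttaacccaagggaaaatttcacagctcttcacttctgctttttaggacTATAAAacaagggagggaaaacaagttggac
Il1a promoter, chr2:129309973-129310272, minus strand: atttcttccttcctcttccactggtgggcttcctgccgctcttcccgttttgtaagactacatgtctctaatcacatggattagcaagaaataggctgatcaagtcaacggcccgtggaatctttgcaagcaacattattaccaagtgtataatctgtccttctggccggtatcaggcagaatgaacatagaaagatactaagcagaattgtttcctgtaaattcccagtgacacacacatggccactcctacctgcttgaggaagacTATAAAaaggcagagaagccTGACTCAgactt
Il1rn upstream promoter, chr2:24336553-24336852, plus strand: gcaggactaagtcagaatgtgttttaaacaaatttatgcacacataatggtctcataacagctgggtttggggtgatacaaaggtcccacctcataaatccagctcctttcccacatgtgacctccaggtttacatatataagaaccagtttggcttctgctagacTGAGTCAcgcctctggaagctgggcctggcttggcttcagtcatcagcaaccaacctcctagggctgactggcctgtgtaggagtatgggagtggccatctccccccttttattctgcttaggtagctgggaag

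The Il1b and Il1a promoters each held a TATA box, at -31 to -26 and at -32 to -27 from the start. The Il1a promoter also held an AP-1 match at -12 to -6, and the upstream Il1rn promoter held an AP-1 match at -134 to -128 and no TATA box. Among 32851 RefSeq promoters of GRCm38 of the same length, which run from 250 bases before to 50 after a start, 13.6% held the TATA box letters and 7.81% an AP-1 match. The farther H3K27ac peak held the PU.1 letters once, at -10114 to -10107 from the Il1b start, as did 4.02% of the windows around all 4200 LPS H3K27ac summits. PU.1 is a transcription factor that macrophages depend on. No NF-κB or C/EBP letters were found in the 5 sequences. NF-κB letters occurred in 1.64% of all LPS H3K27ac summit windows and in 1.25% of promoters, and C/EBP letters in 11.7% and 10.8%. A match is a description of the letters and not a site of binding.

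The nearer of the H3K27ac peaks at Il1b (chr2:129380000-129380492, 493 bp) had its summit at -9299 bp from the Il1b start, in sequence outside any annotated gene. Its fold enrichment, the ratio of coverage at the summit to the local control with 1 added to both, was 6.63. Its −log10 q, which rises as such coverage becomes less likely under the background model of the peak caller, was 5.19 and stood at rank 940 of 4200 in the list, with 71 peaks at that value. The summit rested on 8 fragments, with a 95% Poisson interval of 3.45 to 15.8 that covers counting error only. The farther peak (chr2:129381235-129381457, 223 bp) had its summit at -10.2 kb, also outside any gene. On 9 fragments (4.12 to 17.1), its fold enrichment was 4.99 and its −log10 q 3.1, rank 2602 of 4200. The median summit of the LPS H3K27ac list had 9 fragments, with 5.36 in fold enrichment and 3.75 in −log10 q, so the nearer peak was above and the farther peak below the median of the list in strength.

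An LPS H3K27ac peak in the body extended by 50 kb was listed for 27.7% of protein-coding genes, and 2 or more for 10.6%, as at Il1b. The windows of Il1a and Il1rn held none. The nearest LPS H3K27ac peak to the Il1a start was the nearer Il1b peak, 70028 bp away, and the nearest to the upstream start of Il1rn was 365455 bp away. In the LPS H3K27ac list a summit of 5 fragments over the genome background of the control, or of 8 fragments where the control level was 1, was enough to be listed.

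The PBS H3K27ac list had no peak within 3.32 Mb of the Il1b start, 3.39 Mb of the Il1a start or 1.59 Mb of the upstream Il1rn start. With 52 peaks in all, that list reached 0.588% of genes by the same rule, so its absence here was the common case. It held few peaks anywhere. Its recovered depth was 7210000 fragments, against 5660000 for the LPS list. The PBS depth rested on the lowest control level and the smallest width among only 52 peaks, so this comparison is uncertain. The weakest peak of the PBS list had a −log10 p of 6.91. A PBS summit needed 8 fragments over the genome background, or 10 over a control level of 1, to be listed. Those numbers lie inside the Poisson intervals of both LPS summits at Il1b. A PBS level below 8 fragments would therefore not be listed and could still overlap the LPS level. A difference in H3K27ac between the treatments at these positions was not detectable from these lists. When the LPS list was held to the same −log10 p of 6.91, both LPS peaks remained. The nearer had a −log10 p of 9.73, and the farther passed only narrowly, at 6.94.

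**Figure D1:**
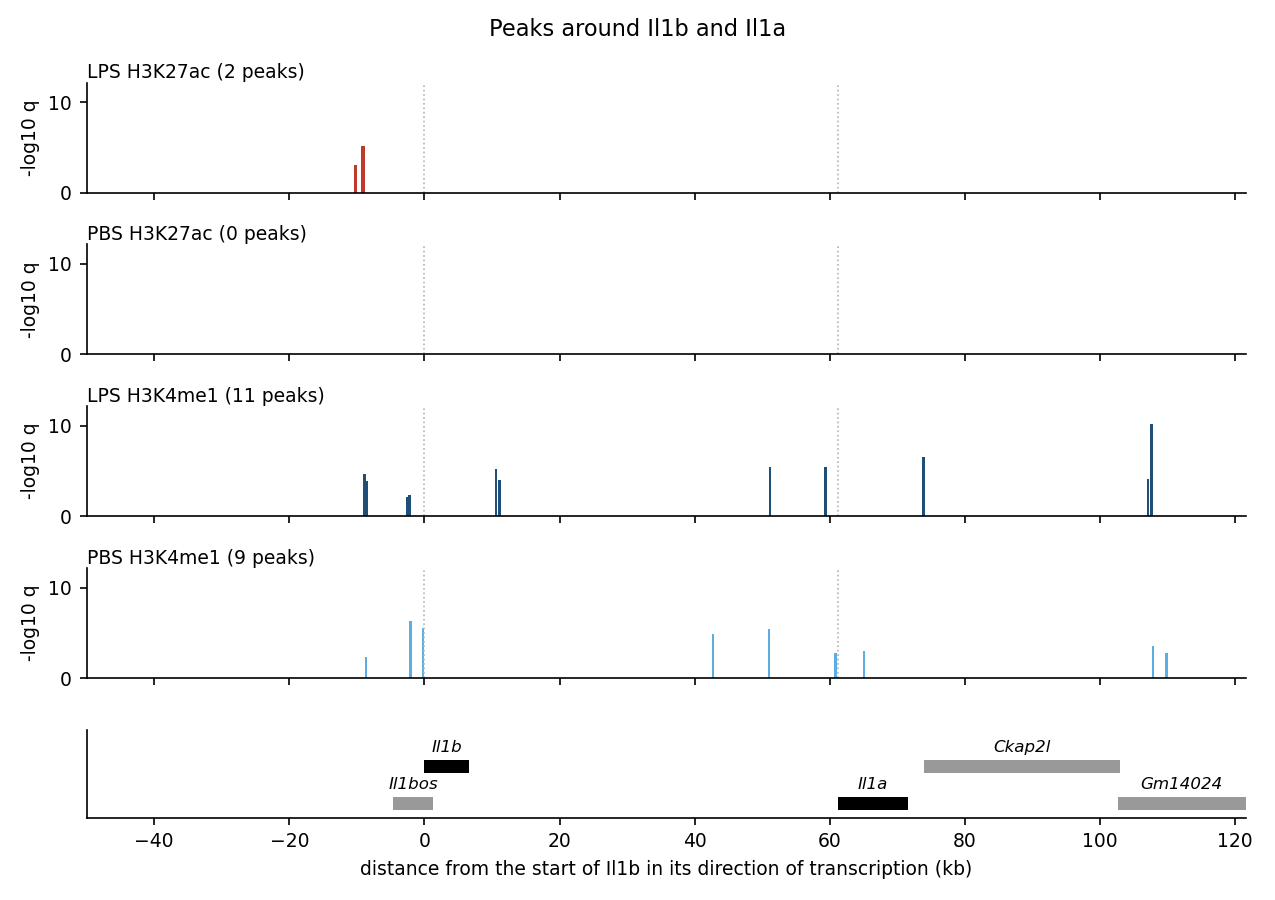
Peaks of the 4 lists around Il1b and Il1a, by distance in kb from the start of Il1b in its direction of transcription, with the −log10 q of each peak as bar height and narrow peaks widened for visibility. Dotted lines mark the starts of Il1b and Il1a, black bars the 2 genes and grey bars neighbouring protein-coding and antisense genes. The 2 LPS H3K27ac peaks stand at about -10.2 and -9.3 kb, beside H3K4me1 peaks of both treatments, and the PBS H3K27ac row is empty.

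The acetylated stretch upstream of Il1b bordered on H3K4me1 in both treatments. The nearer H3K27ac peak shared 212 bp with an LPS H3K4me1 peak (chr2:129379850-129380211) that had its summit at -8.96 kb from the Il1b start, with 13 fragments (6.92 to 22.2) and a −log10 q of 4.72. Under PBS, H3K4me1 was listed at chr2:129379720-129379885, with 9 fragments (4.12 to 17.1) and a −log10 q of 2.32. That peak overlapped the LPS H3K4me1 peak by 36 bp and ended 115 bp short of the H3K27ac peak. The farther H3K27ac peak overlapped no H3K4me1 peak, the nearest being 1024 bp away under LPS and 1350 bp away under PBS. Of the 2 LPS H3K27ac peaks, 1 was thus overlapped by LPS H3K4me1 and 0 by PBS H3K4me1, against 33.6% and 29.9% of all LPS H3K27ac peaks.

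H3K4me1 at the start of Il1b was listed under PBS and not under LPS. The PBS peak (chr2:129371240-129371395) lay at -256 to -101 bp from the start, inside the Il1b promoter sequence shown above and within an intron of the antisense gene Il1bos. At its summit 16 fragments (9.15 to 26.0) gave a fold enrichment of 6.18. The −log10 q was 5.54. The nearest LPS peak was 2119 bp from the start (chr2:129373258-129373425), over an exon of Il1bos, with 18 fragments (10.7 to 28.4), a control level of 2.00 and a −log10 q of 2.38. A PBS peak overlapped that one by 37 bp, with 21 fragments (13.0 to 32.1), a control level of 1.00 and a −log10 q of 6.33, the highest of the PBS peaks at Il1a and Il1b. No H3K4me1 summit of either list lay inside the transcribed body of Il1b.

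At Il1a, too, the PBS list had the peak closer to the start. A PBS H3K4me1 peak (chr2:129310193-129310430) lay at -458 to -221 bp from its start, with 15 fragments (8.40 to 24.7) and a −log10 q of 2.81, while the nearest LPS peak was 1623 bp before it (chr2:129311595-129311948), also with 15 fragments and a −log10 q of 5.46. A second PBS peak had its summit in an intron of Il1a, with 11 fragments and a −log10 q of 3.02. Both Il1a and Il1b thus had a PBS and no LPS H3K4me1 peak within 1000 bp of the start, which held for 5.02% of protein-coding genes and not for Il1rn.

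These absences rest on few fragments. In the LPS H3K4me1 list a summit needed 8 fragments over the genome background, 12 over a control level of 1 and 18 over a control level of 2 to be listed. The PBS intervals at the starts of Il1b and Il1a both begin above 8 and include 12 and 18. The LPS control level at these unlisted positions is not known from the list. Whether the treatments differed at either start could therefore not be settled.

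Further from the starts, the highest −log10 q of the Il1a and Il1b windows was that of an LPS H3K4me1 peak 108 kb downstream of the Il1b start, in an intron of the antisense gene Gm14024 (chr2:129263400-129263695), at 10.1 on 26 fragments (17.0 to 38.1). A PBS peak lay only 42 bp from it without overlap, with 22 fragments (13.8 to 33.3) and a control level of 2.00, and its −log10 q was 3.59. An LPS peak 73.8 kb downstream of the Il1b start (chr2:129297196-129297358) covered the start of Ckap2l, with a −log10 q of 6.51. Its deposited values allow 2 solutions for fragments and control, of which 15 fragments over the genome background was taken. No H3K4me1 summit lay in the body of Ckap2l. Between the genes, 51.2 kb downstream of the Il1b start, the lists overlapped at a region with 20 fragments in each (12.2 to 30.9) and a −log10 q of 5.49 under LPS and 5.37 under PBS.

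Within 50 kb of the gene body, Il1rn had more H3K4me1 peaks than the agonist genes. Its window held 17 LPS and 19 PBS peaks, against 6 and 6 for Il1a and 7 and 5 for Il1b, and 12 and 13 remained without the summits inside Psd4. In bodies extended by 10 kb the order under LPS changed, with 5 peaks at Il1rn, 6 at Il1b and 3 at Il1a, against 6, 3 and 3 under PBS. Over the 50 kb windows the median over all protein-coding genes was 4 and 3. As many LPS peaks as at Il1rn were found at 12.1% of protein-coding genes, and as many PBS peaks at 7.42%. Any LPS H3K4me1 peak in this window was listed for 74.1% of genes and any PBS peak for 70.7%, so that having one was the common case for all 3 genes. H3K4me1 peaks covered 7.66% of the Il1rn window under LPS and 11% under PBS, against 1.49% and 1.15% of the Il1a and Il1b windows and 1.42% and 1.14% of the genome. Coverage around the agonist genes was thus near that of the genome, and around Il1rn it was several times higher in both lists. A large part of the Il1rn coverage lay over Psd4. The 5 LPS peaks with summits in Psd4 were 2951, 667, 331, 234 and 177 bp wide, of 8776 bp covered. The 6 PBS peaks there were 2351, 1583, 916, 456, 209 and 162 bp wide, of 12589 bp covered. Coverage without the Psd4 peaks was not counted.

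**Figure D2:**
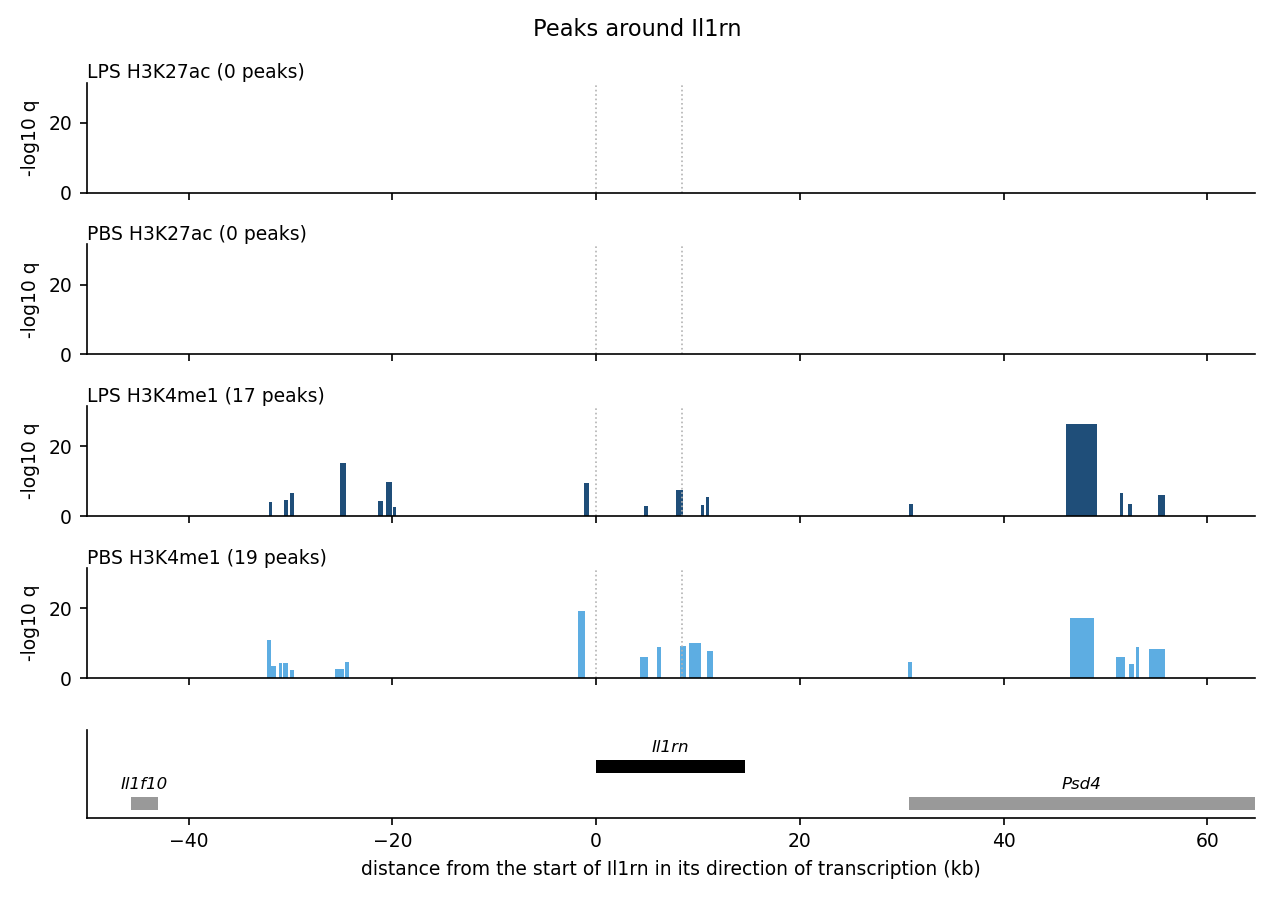
Peaks of the 4 lists around Il1rn, by distance in kb from its upstream start in its direction of transcription, with the −log10 q of each peak as bar height and narrow peaks widened for visibility. Dotted lines mark the upstream and downstream starts, the black bar Il1rn and grey bars neighbouring protein-coding genes. Both H3K27ac rows are empty, and 17 LPS and 19 PBS H3K4me1 peaks stand upstream, over the gene and over Psd4.

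Upstream of Il1rn, the strongest PBS peak of the window (chr2:24335097-24335771) had its summit at -1.31 kb from the upstream start. With 33 fragments (22.7 to 46.3) it reached 13.6 in fold enrichment and 19.1 in −log10 q, rank 920 of 64758. The LPS peak that overlapped it (chr2:24335625-24336159) came within 694 bp of the start and had nearly the same number, 32 fragments (21.9 to 45.2), but 7.28 in fold enrichment and 9.44 in −log10 q. The control level was 1.44 in the LPS library and 0.370 in the PBS library, so the gap in −log10 q came with like fragment counts and unlike controls.

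The downstream start, that of the secreted form, was covered in both lists. The LPS peak (chr2:24344731-24345368) had 18 fragments (10.7 to 28.4) and a −log10 q of 7.41, and the PBS peak (chr2:24345099-24345667) had 27 (17.8 to 39.3) and a −log10 q of 9.31. Within the body of Il1rn there were 4 LPS and 5 PBS summits, all in introns. The PBS list alone held a peak at chr2:24342814-24343191, with 17 fragments (9.90 to 27.2) and a −log10 q of 9.0, and another of 1193 bp at chr2:24345923-24347115, with 19 fragments (11.4 to 29.7) and a −log10 q of 9.99. Both flanked the downstream start, and an LPS peak of 10 fragments (4.80 to 18.4) lay 48 bp from the second without overlap.

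The LPS list alone held a group of 3 peaks with summits from -21.3 to -19.9 kb of the upstream Il1rn start (chr2:24315468-24317133). The middle one had 20 fragments (12.2 to 30.9) and a −log10 q of 9.77, and the others had 13 and 8 fragments. An LPS peak at -24.8 kb (chr2:24311722-24312278) reached a −log10 q of 15.2 on 30 fragments (20.2 to 42.8) and a control level of 0.461. The PBS list had 2 peaks over it, and the one with more fragments had 28 fragments (18.6 to 40.5) with a control level of 4 and a −log10 q of 2.61. Near 32 kb upstream the order was the other way, with a PBS peak (chr2:24304611-24304831) of 22 fragments (13.8 to 33.3) and a −log10 q of 11.0 over a control level of 0.342. The LPS peak there had 17 fragments (9.90 to 27.2), a control level of 0.864 and a −log10 q of 4.19.

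On the other side, the strongest LPS peak of all 58 lay in an intron of Psd4, 46.9 kb downstream of the upstream Il1rn start (chr2:24383015-24385965, 2951 bp). Its −log10 q of 26.3 stood at rank 327 of 73049, with a fold enrichment of 16.7. The PBS peak at the same place had 41 fragments at the summit, as the LPS peak did (29.4 to 55.6), with a −log10 q of 17.1. The control level was 0.346 under LPS and 1.00 under PBS. Psd4 held 5 LPS and 6 PBS summits within the window and Il1f10 held none. Which gene such peaks act on was not measured.

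The lists overlapped less around the agonist genes than around Il1rn. Joining overlapping H3K4me1 peaks gave 17 regions at Il1a and Il1b, of which 3 were in both lists, 8 in the LPS list only and 6 in the PBS list only. At Il1rn the 21 regions were 13 in both lists, 4 under LPS only and 4 under PBS only. Counted by peak, a PBS peak overlapped 3 of 11 LPS peaks at Il1a and Il1b (27.3%, 95% Wilson interval 9.75 to 56.6%) and 13 of 17 at Il1rn (76.5%, 52.7 to 90.4%), against 61.2% of all LPS H3K4me1 peaks. In the other direction, an LPS peak overlapped 3 of 9 PBS peaks at Il1a and Il1b (33.3%, 12.1 to 64.6%) and 15 of 19 at Il1rn (78.9%, 56.7 to 91.5%), against 73.1% of all. The intervals of the loci overlap in both directions, and neighbouring peaks of a locus are not independent.

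Peak strength moved with this difference. The median −log10 q was 4.72 under LPS and 3.59 under PBS at Il1a and Il1b, and 5.55 and 6.12 at Il1rn. Among all LPS peaks no stronger than the strongest one at Il1a and Il1b, 54.2% were overlapped by a PBS peak, and the same share among PBS peaks was 62.4%. These lie below the shares of the whole lists and above those of the Il1a and Il1b peaks, the first within the Wilson interval of the LPS peaks and the second within that of the PBS peaks. The part of peak strength in the difference between the loci was not tested.

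The fragment counts were compared in the 16 regions that both lists held, which had to pass the limits of both. In each region the LPS and the PBS peak with the highest −log10 q were taken. Their summits lay 18 to 467 bp apart, so the paired counts are not from the same position. The Poisson intervals of the counts overlapped in each region. At these counts the intervals are wide, and pairs such as 30 against 17 and 18 against 27 fragments are among them. In the first of these pairs the summits lay 467 bp apart. The PBS list also held a summit of 28 fragments in that region, over a control level of 4. The LPS summit had more fragments in 7, the PBS summit in 7, and the counts were equal in 2. The −log10 q was higher under LPS in 7 and under PBS in 9. The control level was at least 1 at 12 of the 28 PBS summits and at 4 of the 28 LPS summits. In 11 and 2 of them it was a whole number within 0.005, the level that whole control fragments at the summit itself would give. The lists do not say which library was used as control.

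**Figure D3:**
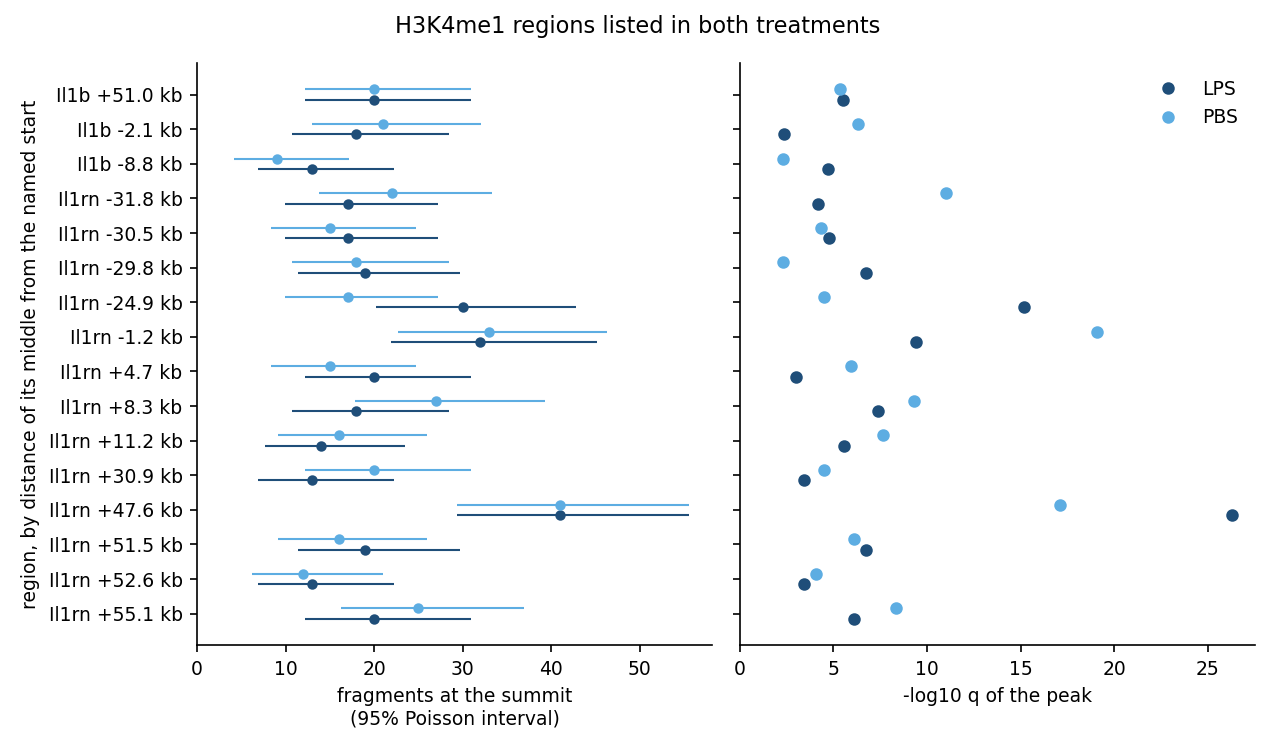
Left, fragments at the summit with 95% Poisson intervals in the 16 H3K4me1 regions that both lists hold. Each list is shown by its peak with the highest −log10 q in the region, and the paired summits lie 18 to 467 bp apart. Right, the −log10 q of the same peaks. The intervals are wide and overlap in every region, including the Psd4 intron at 41 fragments in both, while −log10 q there is 26.3 under LPS and 17.1 under PBS.

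The 22 regions listed under 1 treatment only were read against what the other list needed. In 11 of them the interval of the summit count began above the number that the other list needed over the genome background, and in 4 it did so for a control level of 1. In none did it begin above the number needed over a control level of 2. The 4 were the Gm14024 intron peaks of LPS and of PBS, which lie 42 bp apart, the LPS peak at -20.3 kb from the Il1rn start, and a PBS peak in Psd4 53.1 kb downstream of the Il1rn start with 20 fragments and a −log10 q of 8.75. The control level of the other library at these places is not known from its list. The lists could therefore not settle whether the treatments differed in any of the 22 regions.

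The other genes of the IL-1 pathway were examined within 10 kb of a TSS, in a list of 43 genes. An LPS H3K27ac peak was listed at 14 of them (32.6%), against 9.81% of all protein-coding genes, and a PBS H3K27ac peak at 0, against 0.191%. H3K4me1 was listed at 33 of 43 under LPS and at 33 of 43 under PBS, against 49.6% and 43.5% of all genes. By the same measure Il1b had LPS H3K27ac and Il1a and Il1rn did not, and all 3 had H3K4me1 in both treatments.

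Of the 14 genes, 12 were in the processing and signalling groups. Among the 10 processing and release genes, 6 had an LPS H3K27ac peak, and all 10 had H3K4me1 in both lists. Casp4, the caspase that senses intracellular LPS, had the strongest nearest peak of the 14, over its start, with a −log10 q of 16.1 on 16 fragments. Casp1, which cuts the IL-1β precursor, had one 520 bp from its start with a −log10 q of 8.89. It is a neighbour of Casp4, and the same peak also lay within 10 kb of the Casp4 start. Nlrp3, the sensor of the best known inflammasome, had one over its start with a −log10 q of 5.06. Nek7, the kinase that NLRP3 needs, had one 4682 bp away (3.23), Mefv, the pyrin gene, one 5178 bp away (8.64), and Nlrp1b one 206 bp away (2.96), although Nlrp1b has close paralogs beside it that may share reads.

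Among 17 signalling genes 6 had an LPS H3K27ac peak. Myd88, the adaptor of IL-1 and Toll-like receptors, had one 291 bp from a start with a −log10 q of 3.35. Irak2, a kinase of that complex, had one 5756 bp away (4.48), and Tab1 and Tab2, partners of the kinase TAK1, had one 63 bp (3.23) and 7906 bp (4.09) away. Ikbkg, the regulatory subunit of the IκB kinase, had one over a start (4.17), and Nfkbia, the NF-κB inhibitor IκBα, one 1205 bp away (2.70). Of the 7 family ligands only Il18, another caspase-1 substrate, had one, 898 bp away with a −log10 q of 5.19. Of the 9 receptors and decoys only Il18bp, the soluble inhibitor of IL-18, did, 824 bp away (2.41).

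Except at Casp4 and Mefv, the nearest H3K27ac peak of these 14 genes rested on 7 to 11 fragments, as at Il1b. A peak near a start can be as near to another gene, and the gene it acts on was not measured. None of the 4 lists had a peak within 10 kb at 7 genes, namely Il36a, Il36b, Il36rn, Il1f10, Il1rap, Il18rap and Irak1. The first 4 are family ligands of the cluster on chromosome 2 that also holds Il1rn. Il1rap encodes the shared co-receptor of the family, Il18rap that of IL-18, and Irak1 another kinase of the MyD88 complex.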

How the data were processed

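H3K4me1 and H3K27ac CUT&RUN libraries of BMDMs given LPS or PBS (1 h) were grouped by their sample labels, with 1 library per group. Per the methods, the authors trimmed the read pairs, mapped them with Bowtie2 2.4.4 to GRCm38, excluded blacklisted regions and called peaks per library with MACS2 2.2.7.1. Each deposited list gives peak and summit positions and, at the summit, the fold enrichment (a ratio to the local control), the −log10 p-value and the −log10 q-value. The deposited score was not used. The lowest deposited −log10 q was about 2 in each list.

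From these values the fragments and control level at each summit were recovered by inverting the Poisson p and the fold enrichment, which adds 1 to both terms, with 1 scaling factor per library fitted to the 40 most frequent value pairs. The deposited −log10 p was returned within 0.002 for 100% of peaks in 3 lists and 99.9969% of PBS H3K4me1 peaks. The method was tested on simulated data, with scaling factors above those fitted to the H3K4me1 lists (0.523 under LPS and 0.533 under PBS). The simulated control levels also lay above the genome background of every list, 0.278 to 0.41. The test therefore did not cover the setting of the H3K4me1 lists, or summits at the genome background in the H3K27ac lists. The nearer H3K27ac summit at Il1b, at a control level of 0.357, was of that kind. Depth assumes that the smallest peak width is the mean fragment length. For PBS H3K27ac this width and the genome background both come from only 52 peaks. Low fragment counts, a median of 9, 11, 17 and 17 per summit in LPS and PBS H3K27ac and LPS and PBS H3K4me1, limit precision, and intervals cover counting error only. PCR duplicates would make them too narrow.

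Overlap meant at least 1 bp, and the starts and bodies of genes were those of GENCODE M21. Backgrounds were the shares over all 21938 protein-coding genes or over all peaks of a list. Shares carry Wilson intervals. Promoter letters were counted in RefSeq promoters of GRCm38.p6. Scripts ran in Python 3.11.15 with pandas 2.3.3, scipy 1.17.1 and pysam 0.24.0.

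The genes, pathway and marker lists and motifs were chosen with earlier results of these data known. Named were the 3 genes, protein-coding genes touching their windows, every H3K27ac peak, the H3K4me1 peak nearest each start, the 3 with the highest −log10 q per list and locus, and pathway genes with an LPS H3K27ac peak or no peak in any list within 10 kb of a TSS. The other H3K4me1 peaks described, those listed under 1 treatment only, at the downstream Il1rn start or opposite a named peak, were chosen after their values were seen. Of the T cell markers 5 of 6 matched a protein-coding gene, and all other listed genes matched. Alternatives changed the window, the limits on −log10 q and fold enrichment, list size, merging and the overlap rule.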

Additional observations from a re-analysis of the deposited data

How the results depend on the processing

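The PBS H3K27ac count was 0 in every setting. The 2 LPS H3K27ac peaks became 1 in a 10 kb window, at −log10 q values of 5 or more, at a fold enrichment of at least 5 and after merging peaks within 1000 bp, and 0 when the LPS list was cut to the 52 strongest peaks, the size of the PBS list. The 28 LPS H3K4me1 peaks became 14 in the 10 kb window and 14 at −log10 q values of 5 or more, and the 28 PBS peaks became 12, 14 and, after merging, 18. With at least 50% of both peaks covered, the overlapped share fell to 3.57% from 57.1% of LPS and from 64.3% of PBS H3K4me1 peaks, and with at least 50% of the peak covered it was 10.7% of PBS peaks. By locus, added after seeing the data, it was 27.3% of LPS and 33.3% of PBS peaks at Il1a and Il1b and 76.5% of LPS peaks at Il1rn. Extending the LPS H3K27ac peaks by 500 bp brought the number overlapped by PBS H3K4me1 from 0 to 1. The 1 overlapped by LPS H3K4me1 became 0 when 50% of the peak or of both peaks had to be covered, or when both lists were limited to −log10 q values of 5 or more. Of the other settings tried, none moved a count by over 1.5 times or a share beyond its Wilson interval. No paired analysis was possible because each treatment and antibody had 1 library and no test was run.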
